A study of Mus musculus with 2 samples.

Results

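Matrix metalloproteinases (MMPs), their inhibitors the Timps, the heparan sulphate-cleaving enzyme heparanase and the membrane protease Adam8 were examined as a group of 10 genes in primary and self-renewing macrophages. The genes were Mmp8, Mmp9, Mmp12, Mmp13, Mmp14, Mmp19, Timp1, Timp2, Hpse and Adam8, 10 of the 22910 genes named on the array, and they were represented by 17 of its 32988 named probes. They were chosen by function and with their differences between these arrays already known, so their values are given as a description.

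Total bone marrow cells of C57BL/6 mice were cultured in medium with 10% FCS and 100 ng/ml rhM-CSF, the growth factor that drives macrophage differentiation. Primary macrophages were the cells of the initial culture, labelled day 5 and cultured for 5 to 7 days by the protocol, and self-renewing macrophages came from the same kind of culture after passage 4. Neither cell type carried a transgene or received another agent, the labels give male mice for both, and they do not give the number of animals. By the study's methods, the self-renewing cells were used as an uncloned bulk population where nothing else is stated. RNA of each was hybridised to 1 Agilent array with 1 dye, so that no difference below has a replicate check and no test was possible.

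MMPs are zinc endopeptidases that are made as inactive precursors and, once active, cut collagens, elastin, proteoglycans and other matrix or surface proteins. Timps bind the active site of MMPs and block it, and Timp2 also takes part in activating the precursor of Mmp2 together with the membrane protease Mmp14. Macrophages are a major source of these enzymes, which they use in migration, in matrix turnover and, as osteoclasts, in the resorption of bone. Heparanase cuts the heparan sulphate chains of proteoglycans such as syndecans and glypicans and releases factors bound to them.

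The scanner marked between 33095 and 34808 gene probes per array as clearly brighter than their background, which is called detected below, and no spot was saturated. Levels are log2 of the background-corrected intensity relative to the 75th percentile of the array, which stood at an intensity of 434 for primary and 446 for self-renewing macrophages, and a difference is the self-renewing less the primary level. For a probe detected on a single array the fold is a bound ("at least N-fold"), computed against the intensity of the faintest detected probe on the other array or, where that is higher, against its own reading there. Of 4 Y-linked genes, 4 were detected on the self-renewing array and 0 on the primary array, and Xist was detected on the primary array alone, against the label of male for both. This split runs along the 2 cell types, so sex or animal of origin and cell type cannot be told apart for any gene here. The part of sex or animal in the differences was not tested, also for Timp1, which is X-linked. Macrophage markers were detected on both arrays, 10 of 10, with a median difference of 0.34, among them Csf1r at 0.39, Adgre1 at 0.52 and Cd68 at 0.29. They were not all even, with 1 at least 2-fold lower, Fcgr1 at -1.76, and 1 at least 2-fold higher, Mertk at 2.23.

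In all, 4 of the genes stood at least 2-fold lower in the self-renewing macrophages, namely the collagenase Mmp8, the elastase Mmp12, the inhibitor Timp1 and heparanase. The inhibitor Timp2 alone was at least 2-fold higher. Mmp9, Mmp13, Mmp19 and Adam8 differed by less than 2-fold, and Mmp14 was not well above background on either array. Thus 4 of 9 measured genes were lower and 1 was higher, where of all 15516 genes detected on at least 1 array 8.38% were at least 2-fold lower and 4.76% at least 2-fold higher, and 3 of the 9 passed 5-fold lower, against 2.93%. Because the genes were chosen with these differences in view, nothing is read from their shares. The median of the 9 differences was -0.81, beside -0.02 over all 15516 genes. With the authors' own scaling every difference moves up by 0.19, which changes the split over all genes from 739 higher and 1300 lower to 1035 higher and 1069 lower, and leaves the members' counts at 4 lower and 1 higher.

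**Figure D1:**
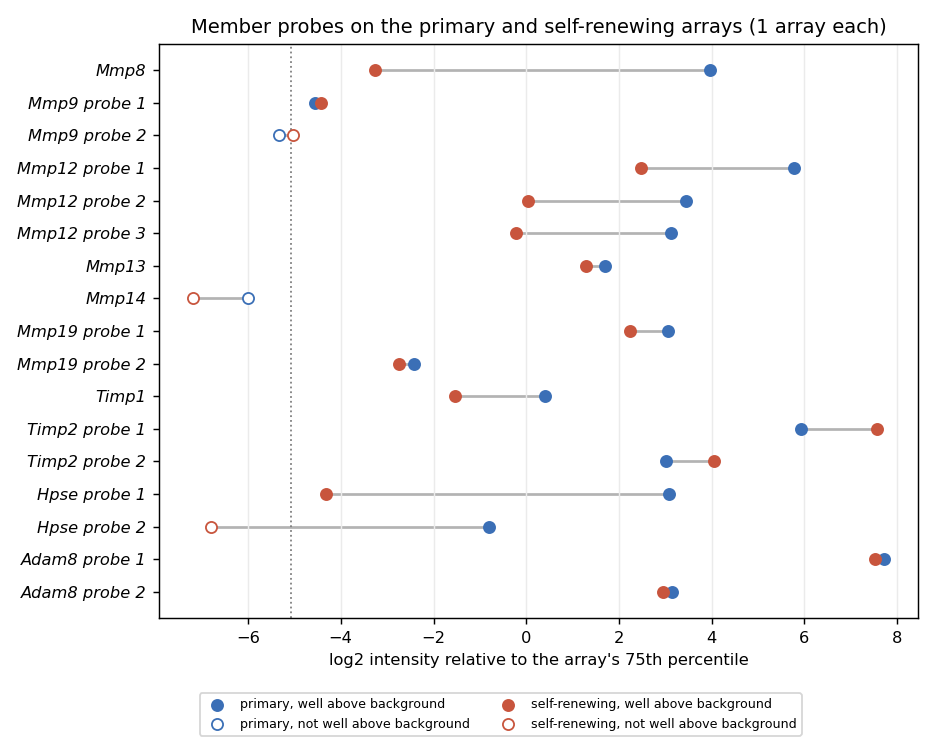
Level of each probe of the 10 genes on the primary (blue) and the self-renewing (red) array, as log2 intensity relative to the array's 75th percentile, 1 array each. Filled points were detected and open points were not, the grey bar joins the pair, and the dotted line marks -5.08, the higher of both arrays' lowest detected level. The long bars are those of Mmp8, Mmp12 and Hpse, and levels of different probes are not to be set against each other.

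Among the collagen-cutting enzymes, Mmp8, which is best known as the collagenase of neutrophils, had an intensity of 6716 ± 672 (the scanner's error of the spot) in primary and 46.6 ± 5.60 in self-renewing macrophages. The probe was detected on both arrays, and on the self-renewing array it stood 1.83 log2 above the lowest intensity that was. The difference was -7.21 ± 0.23 (scanner's error), or 148-fold, and it was the fourth lowest of the 14003 genes measured on both arrays. The 1182 genes detected on the primary array alone have a bound and are outside such ranks, among them S100a9 with a bound of -10.96. Mmp13, the collagenase 3 of cartilage and bone, had 1409 in primary and 1097 in self-renewing macrophages, a difference of -0.40 ± 0.20. This 1.32-fold gap is close to the spread between probes of the same gene, which had a root mean square SD of 0.33 over 5077 genes. Mmp8 and Mmp13 both cut fibrillar collagen, and their differences lay on either side of the 2-fold limit.

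Mmp12, the macrophage elastase, was measured by 3 probes, and all were lower in the self-renewing macrophages. The brightest had 23859 in primary and 2484 in self-renewing macrophages, the next 4753 and 460, and the last 3779 and 381. Their differences were -3.30, -3.41 and -3.35, from 9.88-fold to 10.6-fold, and spanned 0.11. On the self-renewing array the brightest probe still stood at a level of 2.48, above the array's 75th percentile. The difference of the brightest probe was the 95th lowest of the 14003 genes. The difference of Mmp8 less that of Mmp12 came to -3.91 log2, and that of Mmp13 less that of Mmp12 to 2.90 log2.

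Gelatinase B, encoded by Mmp9, was near the limit of detection in both cell types. Its brighter probe had 18.5 in primary and 20.6 in self-renewing macrophages, 0.65 log2 above the lowest detected intensity on each array, and a difference of 0.11 ± 0.38. The other probe, at 10.8 and 13.7, was not well above background on either array. Mmp14, the membrane-type MMP that activates the Mmp2 precursor, had 6.80 and 3.08 and was not well above background on either array, so no difference is given. Mmp19, a secreted MMP that is also found in normal tissues, had 3581 in primary and 2108 in self-renewing macrophages on its brighter probe and 80.5 and 66.3 on the other. The differences were -0.81 ± 0.20 and -0.32 ± 0.22, both below 0 and both less than 2-fold.

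The 2 Timps of the group lay in opposite directions. Timp1, an inhibitor of most secreted MMPs, had an intensity of 578 in primary and 153 in self-renewing macrophages on its single probe, 3.88-fold lower at -1.96 ± 0.21. Timp2 had 26163 in primary and 84712 in self-renewing macrophages on its brighter probe, 3.15-fold higher at 1.65 ± 0.20. The dimmer probe of Timp2 had 3516 and 7384, 2.04-fold higher at 1.03. Both probes of Timp2 were thus higher in the self-renewing macrophages, by amounts that differed by 0.62. The difference of Timp2 exceeded that of Timp1 by 3.61 log2, a 12.2-fold shift of Timp2 relative to Timp1. Among the 14003 genes measured on both arrays, Timp2 was the 240th highest and Timp1 the 267th lowest.

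Heparanase had the largest difference of the 10 genes by its brighter probe. Mmp8 lay lower than Hpse with normexp, a model-based background correction (-5.94 and -5.29), and when the probes of a gene were averaged (-7.21 and -5.85). Normexp was run with an offset of 50 added to every intensity, which draws the differences of dim probes towards 0. The brighter probe of Hpse had an intensity of 3664 in primary and 22.2 in self-renewing macrophages, 169-fold lower at -7.40 ± 0.29, the third lowest of the 14003 genes. On the self-renewing array it stood 0.76 log2 above the lowest detected intensity, so the size of the difference rests on a signal near the limit. The other probe had 250 in primary macrophages and was not well above background in self-renewing macrophages, at least 19.6-fold lower. Adam8, a transmembrane metalloprotease of myeloid cells, was bright on both arrays, at 90966 and 81734 on one probe and 3827 and 3439 on the other. Both probes gave a difference of -0.20, and the pair of cell types was set apart by less than the scanner's error of ± 0.20 for the brighter probe.

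**Figure D2:**
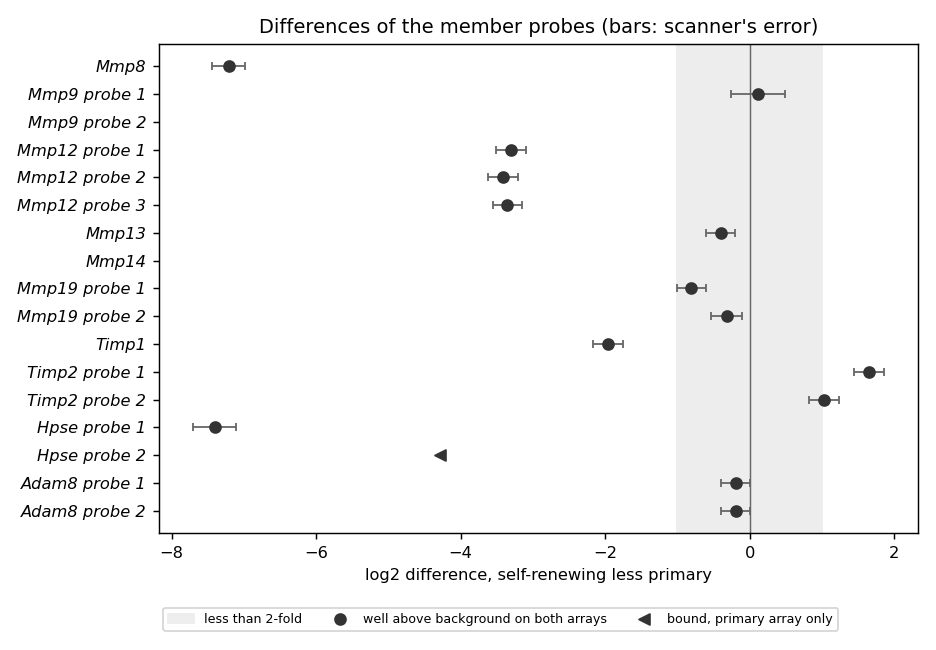
Difference in level, self-renewing less primary, on the log2 scale for each probe that was detected on at least 1 array, with the scanner's error as a bar for probes measured on both arrays. The bound of the dimmer Hpse probe is drawn as a separate marker, and the 3 probes of Mmp12 lie within 0.11 of each other while Timp2 lies to the right of 0 on both probes.

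Mmp12, Mmp13 and Mmp8 belong to a run of 10 MMP genes on chromosome 9, and the run was examined gene by gene. In their order the genes were Mmp13, Mmp12, Mmp1b, Mmp3, Mmp1a, Mmp10, Mmp8, Mmp27, Mmp20 and Mmp7. Mmp13, Mmp12 and Mmp8 were the 3 genes detected on both arrays. The stromelysin Mmp10 had 47.1 in primary macrophages and was not well above background in self-renewing macrophages, at least 3.68-fold lower. The other 5 genes with a matched probe, the stromelysin Mmp3 and matrilysin Mmp7 among them, were not well above background on either array, and no probe was matched to Mmp27. The measured genes of the run thus ranged from -0.40 at Mmp13 to -7.21 at Mmp8. The nearest measured genes outside the MMPs did not stand lower by 2-fold, with Dync2h1 at 0.87 and Dcun1d5 at -0.31 next to Mmp13, and Tmem123 at 0.03, Birc2 at 0.45 and Birc3 at 0.73 beyond Mmp8.

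**Figure D3:**
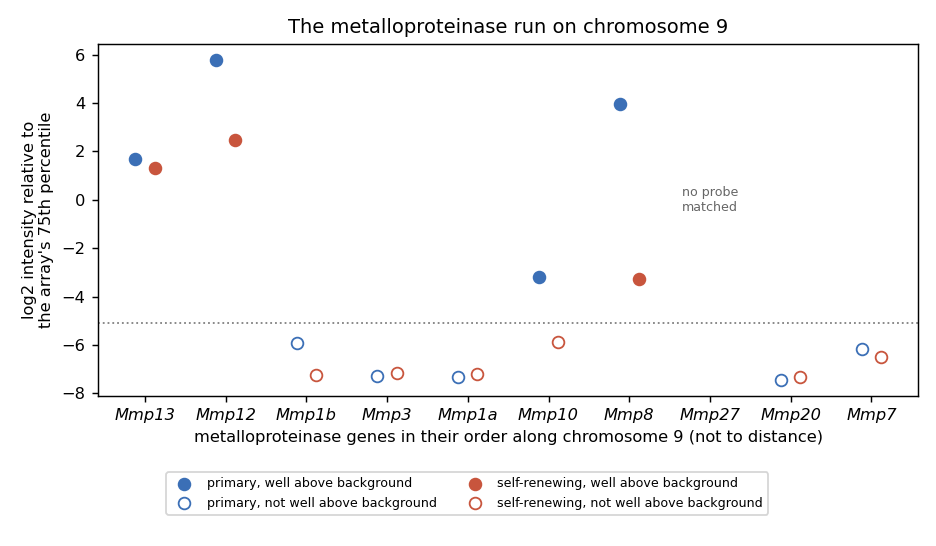
Level on the primary (blue) and self-renewing (red) array of each MMP gene of the chromosome 9 run, in gene order and not to distance, as log2 intensity relative to the array's 75th percentile. Open points were not well above background and the dotted line is at -5.08. Mmp13, Mmp12 and Mmp8 have filled points on both arrays and Mmp10 on the primary array alone.

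The neighbours of the other genes were read in the same way, and values for them were chosen after they were seen. Next to Hpse, Coq2 at 0.10 and Cops4 at 0.18 differed by less than 2-fold, whereas Plac8 had a bound of -5.58. Timp1 overlaps the gene of synapsin 1, Syn1, whose single probe gave -2.59, and the nearby Araf at -0.18, Cfp at 0.26 and Uxt at 0.14 were less than 2-fold apart. Timp2 overlaps Cep295nl, whose probe gave 1.54, and its neighbour Cyth1 gave 1.28. Neighbours past 2-fold also lay beside genes that were not. Near Mmp9, itself at 0.11, Pltp gave -4.82, Cd40 -2.67 and Slc12a5 1.03, while Pcif1, Zfp335 and Ncoa5 were less than 2-fold apart. Mrpl52 near Mmp14 gave 1.43, and no neighbour read for Mmp19 or Adam8 passed 2-fold. How far the probes of overlapping genes read the same transcript was not tested.

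The sequences before the transcription starts are shown for the genes that differed by 2-fold and for Mmp13, which lies beside Mmp12 and differed by less. They are the 150 bases up to each start, 5′ to 3′ on the strand of the gene, from the RefSeq annotation of GRCm38.p6, and 8 of the 10 genes had such an entry, with 9 starts in all, Mmp9 and Mmp19 not being among them. Capitals mark matches on either strand to TGANTCA (the AP-1 site), AGGAAG (an ETS core with its flank), CATGTG (the M-box) and TATAAA (the TATA box). No match to CACGTG, the E-box, was found in the 250 bases searched before any of the 9 starts.
Mmp13, chr9:7272364-7272513, plus strand: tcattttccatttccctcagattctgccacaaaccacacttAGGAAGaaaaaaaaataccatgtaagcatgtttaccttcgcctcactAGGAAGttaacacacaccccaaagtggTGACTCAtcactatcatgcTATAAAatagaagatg
Mmp12 at its upstream start, chr9:7344247-7344396, plus strand: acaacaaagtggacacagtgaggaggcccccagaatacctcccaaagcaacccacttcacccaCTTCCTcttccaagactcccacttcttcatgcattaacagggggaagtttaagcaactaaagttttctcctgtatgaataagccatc
Mmp12 at its downstream start, chr9:7347224-7347373, plus strand: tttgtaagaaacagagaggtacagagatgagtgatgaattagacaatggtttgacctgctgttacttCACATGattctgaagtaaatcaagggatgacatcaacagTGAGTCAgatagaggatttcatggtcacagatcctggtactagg
Mmp8, chr9:7558279-7558428, plus strand: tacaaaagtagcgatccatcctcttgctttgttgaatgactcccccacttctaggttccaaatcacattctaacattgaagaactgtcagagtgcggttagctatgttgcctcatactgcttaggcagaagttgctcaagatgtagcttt
Hpse, chr5:100719717-100719866, minus strand: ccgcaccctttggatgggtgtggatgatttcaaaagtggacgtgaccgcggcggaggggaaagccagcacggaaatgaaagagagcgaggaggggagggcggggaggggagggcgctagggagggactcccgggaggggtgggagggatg
Timp1, chrX:20870016-20870165, plus strand: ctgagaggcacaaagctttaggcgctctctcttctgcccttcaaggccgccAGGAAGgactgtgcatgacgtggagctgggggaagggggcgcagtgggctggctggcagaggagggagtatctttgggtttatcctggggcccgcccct
Timp2, chr11:118355412-118355561, minus strand: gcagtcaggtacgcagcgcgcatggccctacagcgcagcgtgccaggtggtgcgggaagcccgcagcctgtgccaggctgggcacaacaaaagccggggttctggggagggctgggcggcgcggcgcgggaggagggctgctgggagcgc

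An AP-1 match lay 35 bases before the start of Mmp13 and 44 bases before the downstream start of Mmp12, in 2 of 9 starts, where 6.75% of all 32851 promoters held TGANTCA over the same 250 bases. AGGAAG was found before 6 of 9 starts, beside 29.5% of all promoters. Within the bases shown it lay before Mmp13 at 109 and 62 bases, before the upstream start of Mmp12 at 87 and before Timp1 at 99, and further out before Mmp8 at 220, Timp1 at 175, Hpse at 228 and Mmp14 at 209. The M-box was found before the downstream start of Mmp12, beside 12.3% of all promoters, and TATAAA before Mmp13, beside 12.4%. CACGTG is held by 6.02% of all promoters. Bases G and C made up 66.8% of the 250 bases before Hpse and 68% before Timp2, from 39.6% to 44.8% before the starts of Mmp8, Mmp12 and Mmp13, and 52.4% at the median of all promoters. Mmp13 and the downstream start of Mmp12 share the AP-1 letters. The part of this match in the differences of the 2 genes, -0.40 and -3.30, was not tested. A match describes the letters and not a bound site.

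Transcription factors of the AP-1, ETS, Runx and Mitf/Tfe families, known to act on MMP promoters or in osteoclasts, were measured as a list of 22 genes, all detected on at least 1 array. Of them 4 were at least 2-fold lower, 1 was higher and 17 differed by less, with a median of 0.15. Beside the counts of this and the later lists stand the shares over all 15516 genes, 8.38% at least 2-fold lower and 4.76% at least 2-fold higher. The 5 that passed 2-fold all belonged to the 17 AP-1 and ETS genes, whose median alone was -0.26. Fos at -0.48 and Jun at 0.16, the founding members of AP-1, were among the latter. The AP-1 family member Batf had 721 in primary macrophages and was not well above background in self-renewing macrophages, at least 56.4-fold lower. Batf3 had 410 and 122, at -1.79, and Atf3 had 11840 and 4475, at -1.44. Ets1 was lower by its brighter probe at -1.28 and by the other at -2.26, but came to -0.61 with normexp, and Etv1, an ETS factor, was higher with 1789 and 4978, at 1.44.

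Of 17 other MMPs, 16 had a matched probe, 11 were not well above background on either array and 5 were on at least 1. Their median was -0.52, which became -0.02 over those measured on both arrays. Mmp10, given above, and Mmp11, the stromelysin 3, were at least 2-fold lower, Mmp11 with 42.1 in primary macrophages and at least 3.29-fold lower. With the normexp background correction Mmp10 came to -0.70 and Mmp11 to -0.65. Its offset of 50 exceeds both primary readings and leaves little room to reach 2-fold, so this is no check of the 2 calls. No other MMP was at least 2-fold higher. Of 9 other metalloproteinase inhibitors, 6 were detected on at least 1 array, with a median of -0.41. Reck, a membrane-anchored inhibitor of MMPs, had 190 in primary macrophages and was at least 14.8-fold lower. A2m, the α2-macroglobulin that traps proteases of all classes, had 26.6 in self-renewing macrophages alone and was at least 2.19-fold higher. With normexp it came to 0.26, where the offset of 50 again leaves little room to reach 2-fold.

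Among 18 other ADAM and ADAMTS proteases, 12 were detected and 1 differed by 2-fold, with a median of -0.02. Adam19 had 1069 in primary macrophages and was at least 83.5-fold lower, whereas the main sheddases Adam10 at 0.06 and Adam17 at 0.31 lay near 0, as Adam8 did. Plasmin activates several MMP precursors, and of 12 genes of plasminogen activation and its serpins 9 were detected, 0 differed by 2-fold and the median was -0.43. Of 16 genes for other activation, docking and uptake of MMPs, 14 were detected, with a median of 0.08. In this list Itgb3, the integrin β3 chain that forms a docking receptor for MMPs, had 1205 in primary macrophages and was at least 94.2-fold lower, while its other probe gave -1.45. Ctsl, the lysosomal protease cathepsin L, had 137791 and 40116, 3.53-fold lower at -1.82.

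The substrates of heparanase and the enzymes that make them formed a list of 23 genes, of which 20 were detected, 3 were at least 2-fold lower and 1 was higher, with a median of 0.27. The glypican Gpc1, a core protein that carries heparan sulphate at the cell surface, had 1923 in primary and 62.9 in self-renewing macrophages, 31.4-fold lower at -4.97. Srgn, the granule proteoglycan serglycin, had 6663 and 1241, at -2.47, and Hs3st3b1, a heparan sulphate sulphotransferase, was at least 2.64-fold lower, or -0.46 with normexp. The syndecan Sdc2 went the other way, with 15.2 in primary and 126 in self-renewing macrophages, 8.02-fold higher at 3.00. Its primary reading was near the lowest detected intensity of that array, 11.8, so the size of this difference rests on a faint signal. Of 12 genes of heparan sulphate breakdown, 10 were detected, with a median of 0.23, and 2 were at least 2-fold higher. These were Sulf2, a sulphatase that trims heparan sulphate outside the cell, with 1014 and 3836, at 1.88, and the lysosomal Hgsnat, with 10438 and 37844, at 1.82 on its brighter probe and 2.14 on the other. Heparanase, at -7.40, thus lay apart in direction from both. Hpse2 and Sulf1, the nearest relatives of Hpse and Sulf2, were not well above background on either array.

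Matrix proteins that MMPs cut formed a list of 24 genes, of which 18 were detected, 5 were at least 2-fold lower and 4 higher, with a median of -0.21. Thrombospondin 1, Thbs1, had 250 in primary macrophages and a bound of -4.29, and its other probe gave a bound of -2.48. Col18a1, the collagen that releases endostatin, had 9312 and 1768, at -2.44, and the laminin chain Lamb2 had 66.5 in primary macrophages and a bound of -2.38. For fibronectin, Fn1, the brighter probe had 166 in primary macrophages alone, with a bound of -3.70, whereas its other probe was detected in self-renewing macrophages alone, with a bound of 1.44. The probes of Fn1 therefore gave opposite directions, and Fn1 is counted among the lower genes by its brighter probe alone. The remaining lower gene was Fbln5 at -2.05. The 4 higher genes were Col4a1 at 1.74, Nid2 at 1.67 and Col4a2 at 1.36, measured on both arrays, and Fbln1 with a bound of 2.25. With normexp and its offset of 50, which bears most on dim probes, Lamb2 came to -0.93 and Fbln1 to 0.54, both less than 2-fold. Over all these pathway lists, each gene counted once, 116 of 153 genes were detected, and the median was 0.03. Of them 18 were at least 2-fold lower and 9 at least 2-fold higher, beside 8.38% and 4.76% of all 15516 genes.

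**Figure D4:**
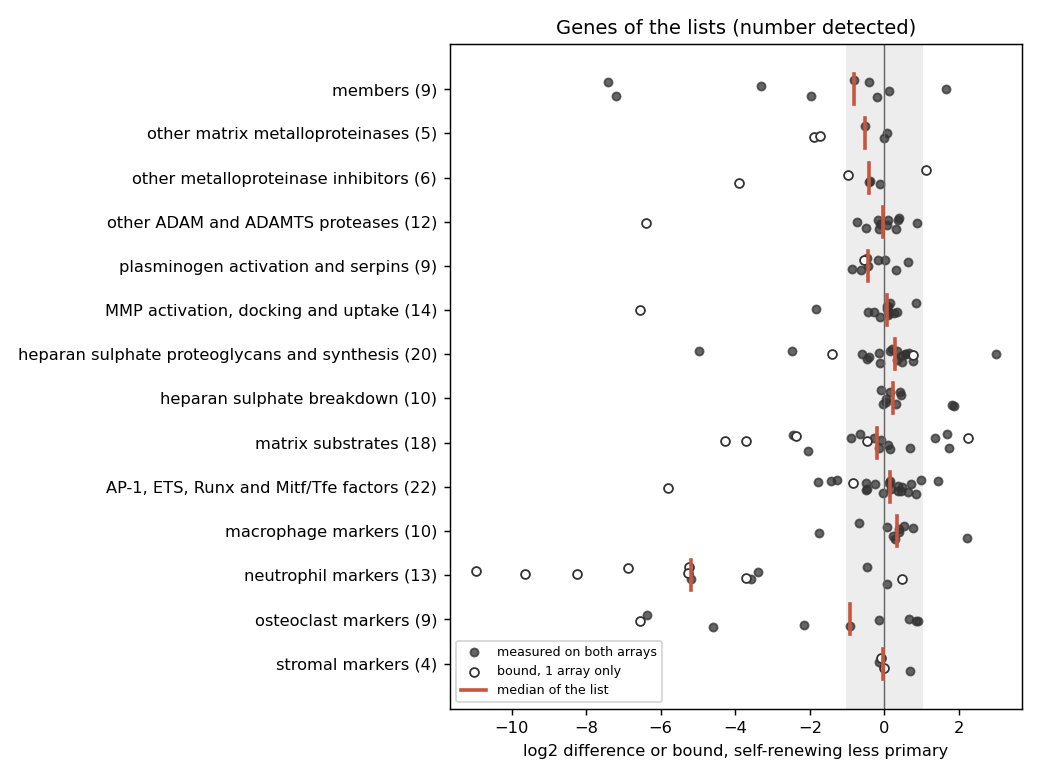
Difference or bound, self-renewing less primary, on the log2 scale for each gene detected on at least 1 array, with the number of such genes in brackets. Drawn are the 10 genes examined, the pathway lists, and the macrophage, neutrophil, osteoclast and stromal marker lists. Filled points were measured on both arrays, open points are bounds, the red bar is the median of the list, and the grey band holds differences under 2-fold. The neutrophil markers have the lowest median, at -5.20.

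Mmp8 and Mmp12 are also expressed by other cells of the bone marrow, and markers of those cells were set beside them. Of 15 neutrophil markers 13 were detected on at least 1 array, and 10 of them were at least 5-fold lower in the self-renewing macrophages, 7 being on the primary array only, with a median of -5.20. Over all 15516 genes, 2.93% were at least 5-fold lower. S100a9, a calcium-binding protein of granulocytes, had 25449 in primary macrophages, S100a8 had 10197, the lectin Chil3 had 3914 and cathepsin G, Ctsg, had 1505, and all 4 were detected on that array alone. Csf3r at 0.08, Elane at -0.47 and Cxcr2 with a bound of 0.47 did not differ by 2-fold. Retnlg was not well above background on either array, and no probe was matched to Ly6g. The summed intensity of the neutrophil markers was 123176 in primary and 80952 in self-renewing macrophages. Without Csf3r, the brightest of them at 71955 and 77977, it was 51221 and 2975. Macrophages also express Csf3r, and whether they express others of these markers was not tested. The sums join probes of unlike brightness and do not measure an amount of neutrophil RNA. Mmp9, which neutrophils carry in their granules, stood near the limit of detection on both arrays. The part of neutrophil RNA in the differences of Mmp8 and of the other genes was not tested, and fewer such cells and less RNA per cell cannot be told apart in these samples.

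Osteoclasts are made from the same precursors and express MMPs, and of 10 osteoclast markers 9 were detected and 4 were at least 2-fold lower, with a median of -0.91. The fusion receptor Dcstamp had 2724 and 33.7, at -6.38, the tartrate-resistant phosphatase Acp5 had 1131 and 48.0, at -4.60, and Itgb3 is given above. Ctsk at 0.85, Nfatc1 at 0.66 and Tnfrsf11a at 0.91 lay above 0, and Calcr was not well above background. With the authors' scaling, 2 of the osteoclast markers were at least 2-fold higher. The summed intensity of the list was 14895 in primary and 14744 in self-renewing macrophages, and 9905 and 5081 without Tnfrsf11a, its brightest gene. The other probe of Tnfrsf11a gave 0.11. A sum over probes of unlike brightness does not measure an amount of osteoclast RNA. Of 10 stromal markers 4 were detected and 0 differed by 2-fold, with summed intensities of 22473 and 20993 that came almost wholly from Acta2, and of 78.9 and 103 without it, and the defining genes Col1a1, Col3a1, Pdgfra, Pdgfrb, Dcn and Lum were not well above background on either array. The part of osteoclast-like cells in the values was not tested.

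Under 9 other ways of processing the arrays, each of the 9 measured genes kept its sign. Several of these ways could hardly have changed it. The other scalings and the authors' values shift all genes by the same small amount. The settings on detection and on averaging leave a gene with 1 detected probe as it was. Mmp8 ranged from -7.23 to -5.94, Mmp12 from -3.36 to -3.12, Timp1 from -1.97 to -1.59 and Hpse from -7.42 to -5.29, and Timp2 ranged from 1.34 to 1.84. Mmp13 stayed between -0.43 and -0.21 and Mmp19 between -0.83 and -0.56. Adam8, between -0.21 and -0.01, and Mmp9, between 0.04 and 0.35, came close to 0, and their signs carry no weight.

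**Figure D5:**
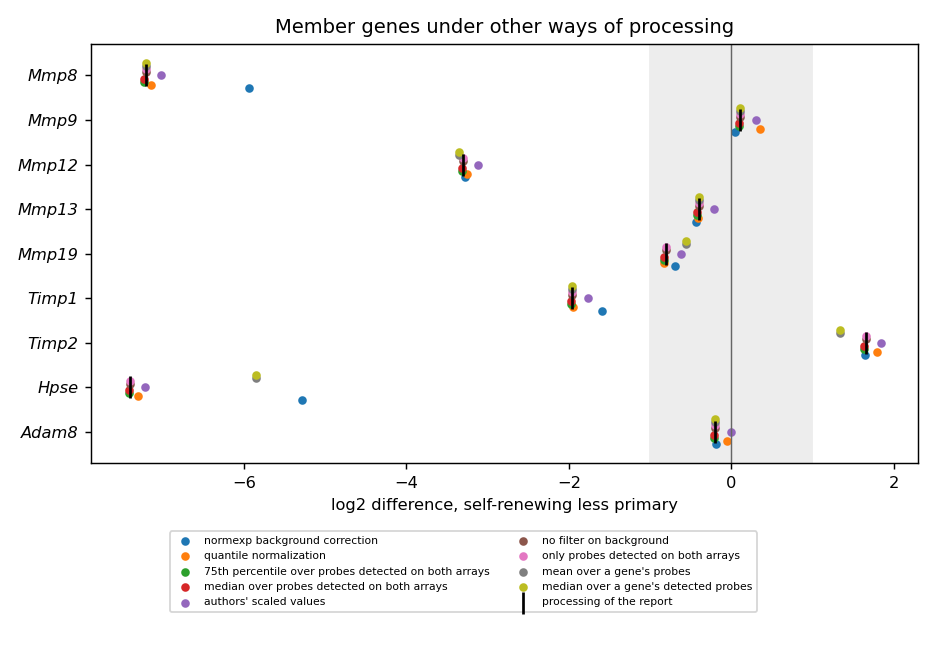
Difference, self-renewing less primary, on the log2 scale for the 9 measured genes under the processing used here (black bar) and under 9 others (coloured points, a little apart in height so that they can be seen). The grey band holds differences under 2-fold, and no gene crosses its edge or 0, with Hpse moving most, to -5.29.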

How the data were processed

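RNA of 1 primary and 1 self-renewing macrophage culture was labelled with Cy3 and read on SurePrint G3 mouse arrays. The authors deposited scanner output of Agilent Feature Extraction 11.5.1.1, which holds the background-corrected intensity of each spot, and a table of the same intensity values times 1 constant per array, 1.07 and 1.19. Here log2 intensity was centred on the 75th percentile of all gene probes on the array, after removal of 63 outlier spots per array and averaging of a probe's spots. Over 279 probes with at least 8 spots, the median SD between spots was 0.041 log2 on the primary and 0.046 on the self-renewing array, and the number of arrays limits all precision. Accessions matched 58.3% of 56598 probes to genes of GRCm38.p6. Array coordinates were of another build and are not given. A gene is represented by its brightest detected probe.

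No test was made. Calls are by size, at 2-fold and 5-fold. The genes and lists were chosen with earlier results of these data known. Named are all 10 genes, and of each pathway list those past 2-fold, or of neutrophil, osteoclast, stromal and macrophage markers past 5-fold, where at most 6, else the 4 furthest from 0; sex-linked genes are a count, and any other gene was picked with its value in view. The alternatives were normexp (offset 50), quantile normalization, 2 other scalings, the authors' scaled values, no filter, only probes detected on both arrays, and the mean or median over probes. The scripts were tested on simulated data. Python 3.11.15, numpy 2.4.6, pandas 2.3.3, matplotlib 3.10.9, R 4.3.3 and limma 3.58.1 were used.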

Additional observations from a re-analysis of the deposited data

How the results depend on the processing

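No paired analysis was possible because there was a single array for either kind of macrophage. No difference of the 9 measured genes changed sign under the 9 alternatives. Several alternatives shift all genes alike or leave a gene with 1 detected probe as it was, here and for the list genes below. With normexp background correction, Mmp8 stood at -5.94, Timp1 at -1.59 and Hpse at -5.29, and over all named genes 427 were at least 2-fold higher and 759 lower. Of the pathway lists 13 genes were lower in place of 18 and 7 higher in place of 9. The calls lost were those of Mmp10, Mmp11, Hs3st3b1, Lamb2, Ets1, A2m and Fbln1. For the dimmest of them the added offset of 50 left little room to reach 2-fold, so their loss is no check of the call. With the authors' scaling, 13 genes of the pathway lists were at least 2-fold higher in place of 9, and 18 were lower. Higher were then 3 of the transcription factors, 2 osteoclast markers, and 1 each of the ADAM list and the activation, docking and uptake list. With the mean or the median over its probes, Hpse stood at -5.85, and 21 genes of the pathway lists were lower in place of 18. Without the detection filter, 1192 genes stood 2-fold higher and 2336 lower, 29 genes of the pathway lists were lower in place of 18, 5 of the 10 genes were lower with Mmp14 added, and the median of the other MMPs was 0.11. With only probes detected on both arrays, 782 of all genes and 9 of the pathway lists were lower, the median of the other MMPs was -0.023 and Itgb3 stood at -1.45. Of 459 values of 54 single list genes past 2-fold, 84 moved by more than the spread between probes of the same gene and 0 changed direction. Signals near background limit the size of large differences, those of Hpse, Mmp8 and Sdc2 among them.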

Other observations

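Markers of other blood cells were read on the same arrays. Of 8 mast cell and basophil markers 6 were detected on at least 1 array, and 2 of these were at least 2-fold lower in self-renewing macrophages (median -0.30). Of 8 lymphoid markers 7 were detected and 3 were lower, with a median of -0.20. Cd79b, a chain of the B cell receptor, had 696 in primary macrophages and was at least 54.4-fold lower, chosen here after its value was seen. Of 6 erythroid markers 4 were detected and 2 were lower, with a median of -1.10, among them the globin Hbb-bt, at least 5.49-fold lower. With normexp, whose offset of 50 bears most on dim probes, 0 of the mast cell and basophil markers and 1 of the lymphoid markers stayed 2-fold lower. None of these 3 lists held a gene that was at least 2-fold higher.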
